A study of Mus musculus with 4 samples.

Results

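Dermal fibroblast-rich spots were followed in spatial transcriptomics of mouse dorsal skin. A spot was chosen by its score, the mean over *Col1a1*, *Col3a1*, *Dcn*, *Lum*, *Sparc* and *Mfap5* of the natural log of 1 + 10000 × the gene's UMIs over the spot's total UMIs, and the top 10% of spots of each slice were taken. UMIs are unique molecular identifiers, which count captured mRNA molecules. This gave 642 member spots of the 6411 spots with at least 250 detected genes, with 165, 175, 156 and 146 in slices 1 to 4. Since 1 spot covers more than 1 cell, the members are regions in which dermal fibroblast genes weigh most. They are not pure fibroblasts, and 201 of them were also among the top 10% of spots for epidermal genes.

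Skin came from 3 *R26-tdTomato; Krox20-CreERT* mice, which carry *CreERT* at the *Krox20* locus behind a P2A linker that keeps *Krox20* working, and a *tdTomato* reporter at *Rosa26* that recombination switches on. Labeling was induced with 4-hydroxytamoxifen at P2 and dorsal skin was taken at P38. Each of 4 Visium slices held 1 fresh-frozen section of 10 μm per mouse, so the slices are technical replicates of the same mice. There is a single group with no control, and every comparison is between spots of the same sections. The study left out the 4th section for its distorted structure without stating its spots. All spots were therefore used, and a 4th skin sample may be among them. Slices held 26910422, 24128004, 21384253 and 19393026 UMIs. All p-values therefore measure the spread between slices and not that between mice.

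Dermal fibroblasts make and remodel the collagen and elastic fibres that give skin its strength. Papillary fibroblasts lie below the epidermis, reticular fibroblasts deeper in the dermis, and fascia fibroblasts around the panniculus carnosus, the thin skeletal muscle sheet of rodent skin. New collagen chains are hydroxylated and folded in the endoplasmic reticulum with the help of dedicated enzymes and chaperones, trimmed outside the cell and then cross-linked by lysyl oxidases.

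The score genes describe how the members were selected and were not tested. *Col1a1*, a chain of type I collagen, reached 16509.5 ± 2555 CPM (counts per 1000000 UMIs of the class, mean ± SD, n = 4 slices) in members and 1843 ± 418 CPM in other spots. *Col3a1*, type III collagen, had 8654 ± 978 CPM against 1456 ± 150.0 CPM, *Sparc*, a collagen-binding matricellular protein, 6964 ± 821 CPM against 1029 ± 73.3 CPM, and *Dcn*, the proteoglycan decorin, 1171 ± 117 CPM against 274 ± 22.9 CPM. *Lum*, the proteoglycan lumican, had 471 ± 35.5 CPM against 70.7 ± 2.27 CPM. *Mfap5*, a microfibril gene, separated the classes least, with 57.8 ± 8.15 CPM against 21.0 ± 2.92 CPM and a UMI in 39.6% of members and 22.0% of other spots. The score has no gap at the threshold. The lowest members scored 2.811, 2.706, 2.572 and 2.569 in slices 1 to 4, and the highest other spots 2.810, 2.706, 2.567 and 2.568, whereas the median members scored 3.055, 3.018, 2.835 and 2.807. In slice 3 the lowest member held 82 *Col1a1*, 60 *Col3a1* and 0 *Lum* UMIs, and the highest spot outside held 86, 37 and 3.

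**Figure D1:**
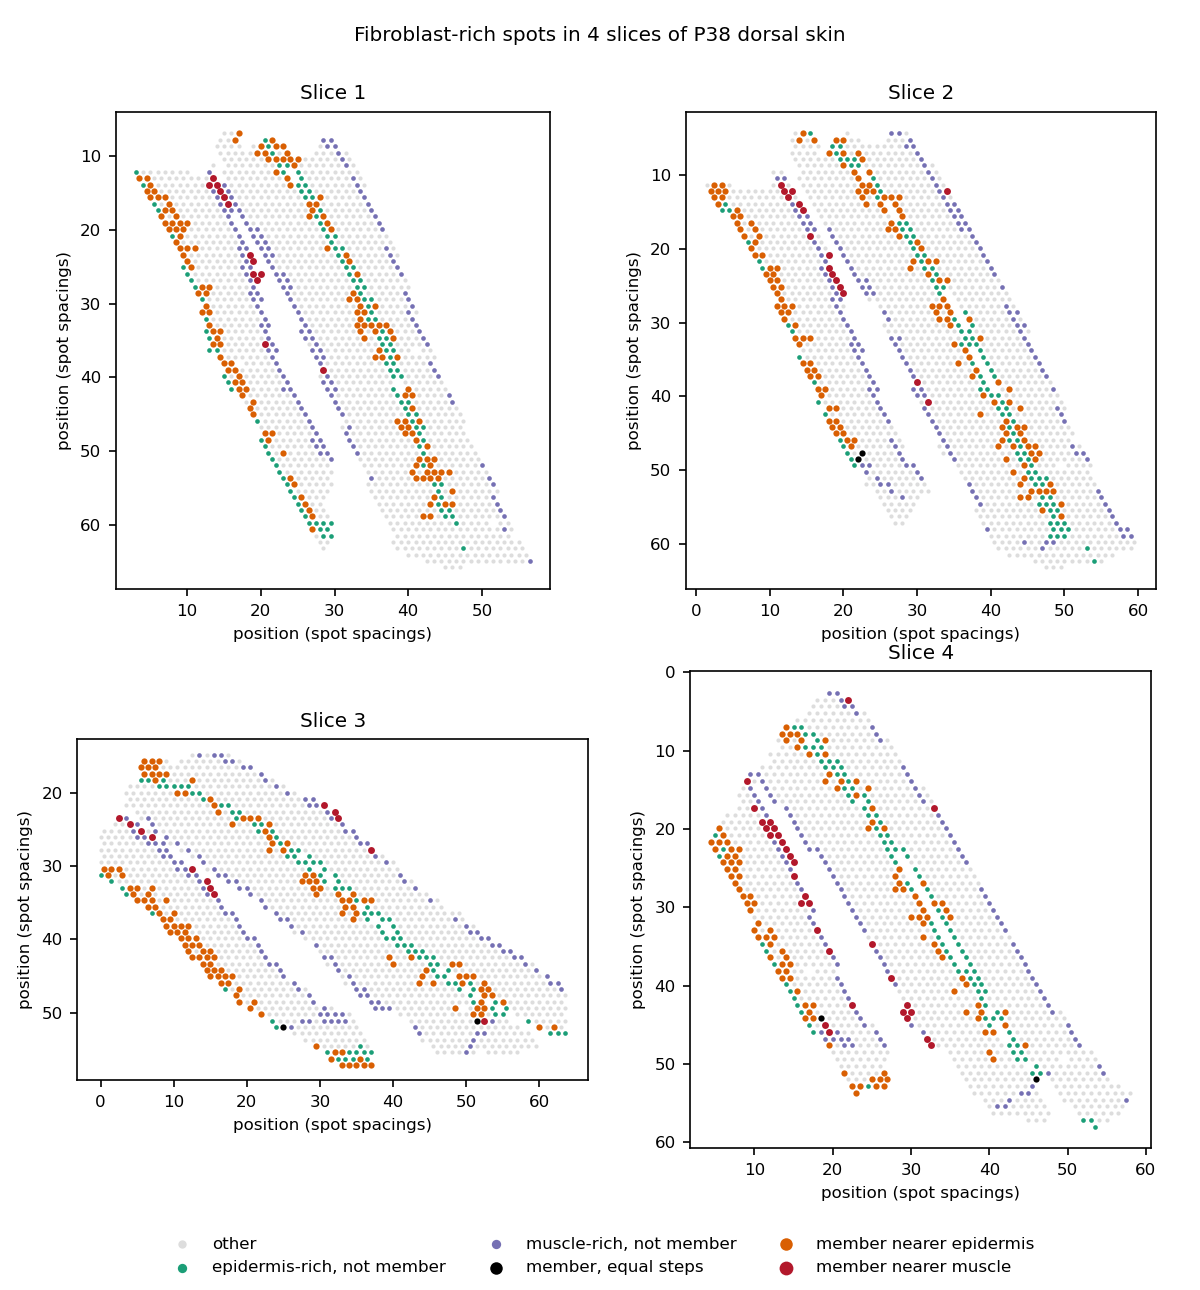
Positions of the kept spots of the 4 slices, with both axes in spot spacings. Orange and red dots are the 642 members, colored by whether an epidermis-rich (563) or a muscle-rich spot (73) was nearer, black dots are the 6 with equal steps, and green and purple dots are epidermis-rich and muscle-rich spots that are not members. Most members line the epidermal bands, and the red ones lie on the muscle sheet.

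Position was not used to choose the spots, and the members lay mostly in a broken band at and next to the epidermis, with a further small band at the muscle sheet. Of the spots next to a member, 39.9%, 36.6%, 44.8% and 38.4% were members in slices 1 to 4 (39.9% ± 3.52), against 6.81%, 6.96%, 5.91% and 6.68% next to other spots. The ranges did not overlap, and the 2-sided exact sign-flip test over slices gave the smallest p that 4 slices allow, which does not reach 0.05. This limit holds for every sign-flip test here, including the 5 on steps adjusted together. The members fell into 39, 60, 41 and 52 connected patches, the largest with 28, 16, 45 and 24 spots.

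Distances were counted in steps between neighboring spots, to the nearest spot in the top 10% for epidermal (*Lor*, *Krt1*, *Krt10*, *Krtdap*, *Sbsn*, *Dmkn*), skeletal muscle, adipocyte, smooth muscle or hair genes. The means in the next 3 sentences leave out spots that belong to the class itself and so lie at 0 steps. Members outside the class were 2.20, 2.39, 2.08 and 3.2 steps from an epidermis-rich spot on average, and other spots 4.68, 4.81, 4.22 and 4.44. They lay farther from muscle-rich spots (6.53 ± 0.407 against 3.95 ± 0.362 steps) and hair-rich spots (4.21 ± 0.243 against 2.41 ± 0.0666 steps), and nearer to smooth muscle-rich spots (1.52 ± 0.230 against 2.40 ± 0.191 steps), each in 4 of 4 slices. Adipose-rich spots were 2.72 ± 0.290 steps away, against 2.28 ± 0.0772 for other spots. Among the spots 0, 1 and 2 steps from the epidermis, 31.2% ± 3.79, 32.6% ± 3.06 and 13.6% ± 1.74 were members. This share was 1.45% ± 0.485 at 3 steps and 0 of 740 spots at 5 steps. The latter allows a share of up to 0.405%, a limit of 3 spots that takes spots as independent, which clustered spots are not. At 6 or more steps the share was 3.68% ± 1.94. Slice 4 had the highest value there, 6.58%, and 14.4% of its muscle-rich spots were members, against 3.43% to 6.06% in the other slices.

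**Figure D2:**
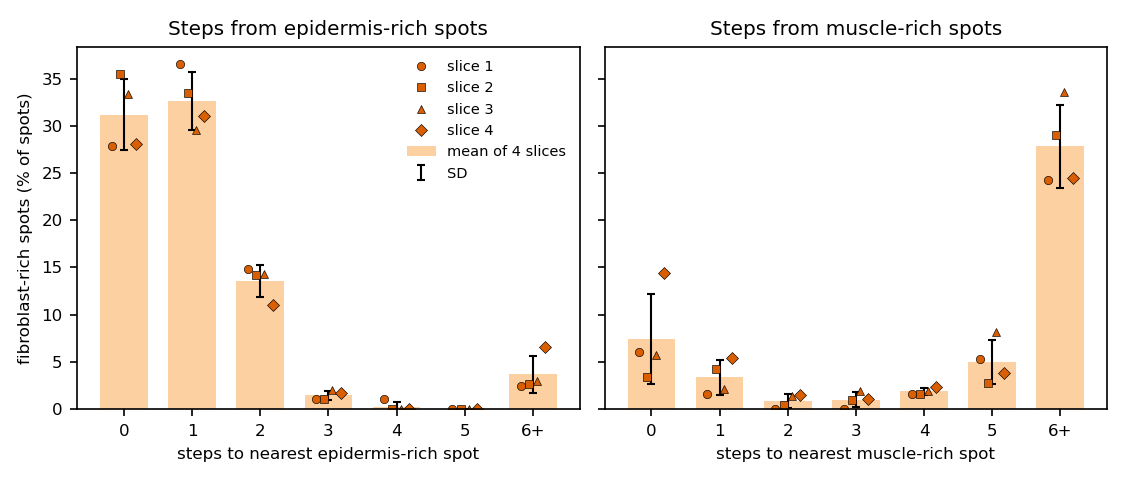
Share of spots that were fibroblast-rich (percent) by steps from the nearest epidermis-rich spot (left) and muscle-rich spot (right). Bars are means of 4 slices, error bars SDs, and symbols slices. The mean share is 31.2% and 32.6% at 0 and 1 step from the epidermis, 0% at 5 steps and 3.68% at 6 or more, and it is 7.41% in the muscle-rich spots themselves.

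Members overlapped with other regions. Epidermis-rich spots made up 31.2% ± 3.79 of them, smooth muscle-rich spots 30.5% ± 1.62, muscle-rich spots 7.41% ± 4.80 and adipose-rich spots 5.39% ± 1.63, and 36.7% ± 4.41 were in none of the classes. Hair-rich were 0 of 642, which allows a share of up to 0.467% if spots are taken as independent. Members held fewer UMIs, with medians of 12193, 9795, 9299 and 10613 against 15067, 12392, 12249 and 11934 in other spots. Their mitochondrial share of UMIs was 5.31% ± 1.02 against 4.36% ± 0.717, higher in 4 of 4 slices, and their share from ribosomal protein genes was 18.0% ± 1.02 against 22.9% ± 1.61, lower in 4 of 4. The part that depth and these shares play in the gene results below was not tested beyond a fit within depth quartiles. In sums over spots, fewer cells of a type and less RNA per cell cannot be told apart.

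Members were compared with the other 5769 spots by summing UMIs per slice and class and testing 13779 genes with edgeR's quasi-likelihood test, with the slice as a block. A gene is called higher or lower at an adjusted p under 0.05 and a change of at least 2-fold. In all, 1550 genes were higher (11.2%) and 505 lower (3.66%), and 1491 and 495 of these had the same direction in every slice. The genes were measured in the same spots that the score ranked, and the part of the ranking in these counts was not isolated. With members chosen on a random part of each spot's UMIs and genes tested on the rest, 1270 were higher and 377 lower. Within quartiles of spot depth, where 9653 genes could be tested, 555 were higher and 173 lower.

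The 10 genes with the largest increases by the rule for naming genes included fibroblast, chemokine and immune genes. *Col1a2*, the other chain of type I collagen, had 16512, 16364, 15874 and 14976 CPM in the members of slices 1 to 4 and 1999, 1652, 1699.7 and 1889 CPM in other spots (log2 fold change 3.14 ± 0.06, adjusted p = 2.64e-18). *Cpz*, an extracellular carboxypeptidase, had 233, 269.8, 204 and 189 CPM against 24.3, 22.1, 19.0 and 17.1 CPM (log2 fold change 3.43 ± 0.08, adjusted p = 1.13e-16). Neither gene's ranges overlapped. *Mfap4*, which binds collagen and elastin microfibrils, had 687 ± 42.3 CPM against 88.6 ± 7.90 CPM (log2 fold change 2.95 ± 0.07, adjusted p = 1.46e-16). The other named genes were *Ccl19* (3.01), *Cd209d* (2.94), *Cdh4* (3.09), *Nptx2* (3.01) and *Mup20* (4.10) as log2 fold changes, of which *Ccl19* attracts dendritic and T cells, *Cd209d* is a lectin of myeloid cells and *Cdh4* a cadherin.

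Antibody genes stood at the top of the list but came from few spots. *Igkc* and *Igha*, the constant regions of the kappa light chain and of IgA, which plasma cells secrete, had log2 fold changes of 4.19 ± 0.36 and 4.17 ± 0.36 (adjusted p = 1.02e-08 and 1.49e-08). *Igha* had 46.6, 47.8, 39.5 and 74.0 CPM in members and 2.66, 0.763, 8.28 and 1.30 CPM in other spots, so that slice 3 had the highest level outside and the lowest ratio. UMIs of *Igha* were found in 60 members, and the 10 highest held 74.9% of its 371 UMIs. For *Igkc* these were 56 members, 74.2% and 330 UMIs. Of 3 strips into which each slice was split across the tissue, strip 3 held 54, 52, 36 and 20 members in slices 1 to 4 but 1.89% of the *Igha* and 2.42% of the *Igkc* UMIs of all members. In contrast, *Cpz* was found in 526 members and its 10 highest held 7.81% of its UMIs, and *Col1a2* was found in all 642. *Mup20*, a major urinary protein gene, was found in 84 members. Its 10 highest members held 38.8% of its 183 UMIs, and strip 3 held 6.01%.

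Genes lower in members included those of the hair follicle. Of those named by the rule, 5 are given here, *Snhg15* (-2.02), *Krtap31-2* (-1.81), *Mfsd2a* (-1.67), *Mycn* (-1.66) and *Foxe1* (-1.58). *Krtap31-2* is a hair keratin-associated protein and *Foxe1* a transcription factor of follicle cells. Of 11 hair matrix and shaft genes tested, 8 were lower (median log2 fold change -1.11), with *Msx2* (-1.41) and *Krt35* (-1.39), and of 7 melanocyte genes 6 were lower (median -1.30), with *Mlana* (-1.56) and *Dct* (-1.38). Cell cycle genes had 4 of 12 lower, with *Cdk1* (-1.34) and *Ccna2* (-1.17). Of all 13779 genes 3.66% were lower, and their median was -0.03. At equal position edgeR called none of these 5 in any class where it could be tested. *Foxe1* was at -0.26 ± 0.17 at equal distance from the epidermis (adjusted p = 0.381), *Mfsd2a* at 0.05 at 1 step and *Krtap31-2* at -1.28 at 2 steps, and *Snhg15* and *Mycn* were tested among muscle-rich spots alone (-1.21 and -0.60).

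Since members lie next to the epidermis, the comparison with all other spots also contrasts shallow with deep skin, and comparisons at equal position were added once these values were known. Members and other spots were compared at 0, 1 or 2 steps from an epidermis-rich spot, with each slice and step as a block, which took in 559 members (87.1%) and 1631 other spots (28.3%). There, 94 of 7960 genes were higher (1.18%) and 1 lower (0.0126%), and all 94 were higher in 4 of 4 slices. Steps of a slice are not independent, so the comparison was also made with slices alone as blocks. Among epidermis-rich spots 106 genes were higher (1.40%) and 2 lower (0.0265%), at 1 step 173 (2.03%) and 10 (0.117%), and at 2 steps 87 (0.954%) and 7 (0.0768%). Among muscle-rich spots, with 46 members and 596 other spots, 119 were higher (1.43%) and 2 lower (0.0241%). In the 3 epidermal classes members held more UMIs than the spots they were compared with, with medians of 9697 against 8164 among epidermis-rich spots, 10140.1 against 8288 at 1 step and 12826 against 10310.1 at 2 steps, and the part of this in the result was not tested. These 4 position classes hold different spots, apart from 20 muscle-rich spots that lie within 2 steps of the epidermis.

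Equal distance is measured from spots picked by 6 suprabasal genes, so it also holds the level of the epidermis similar by construction. Suprabasal genes had 9 of 10 higher against all other spots (median log2 fold change 1.99), such as *Krt1* (2.24) and *Lor* (2.15), and of the 4 that did not set the distances 3 were higher against all other spots (median 1.91) and 0 at equal distance (median -0.37). Basal keratinocyte genes had 3 of 10 higher against all other spots (median 0.75) and 0 of 10 at equal distance (median -0.09). For the sebaceous gland, 4 of 9 were higher against all other spots, among them *Scd3* (2.31) and *Cidea* (2.09), and 0 of 7 at equal distance (median -0.10). Of all genes, 11.2% were higher against all other spots and 1.18% at equal distance. The hair genes were at a median of -0.05 there, with 0 of 11 called. The value at equal distance is given beside each group below.

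**Figure D3:**
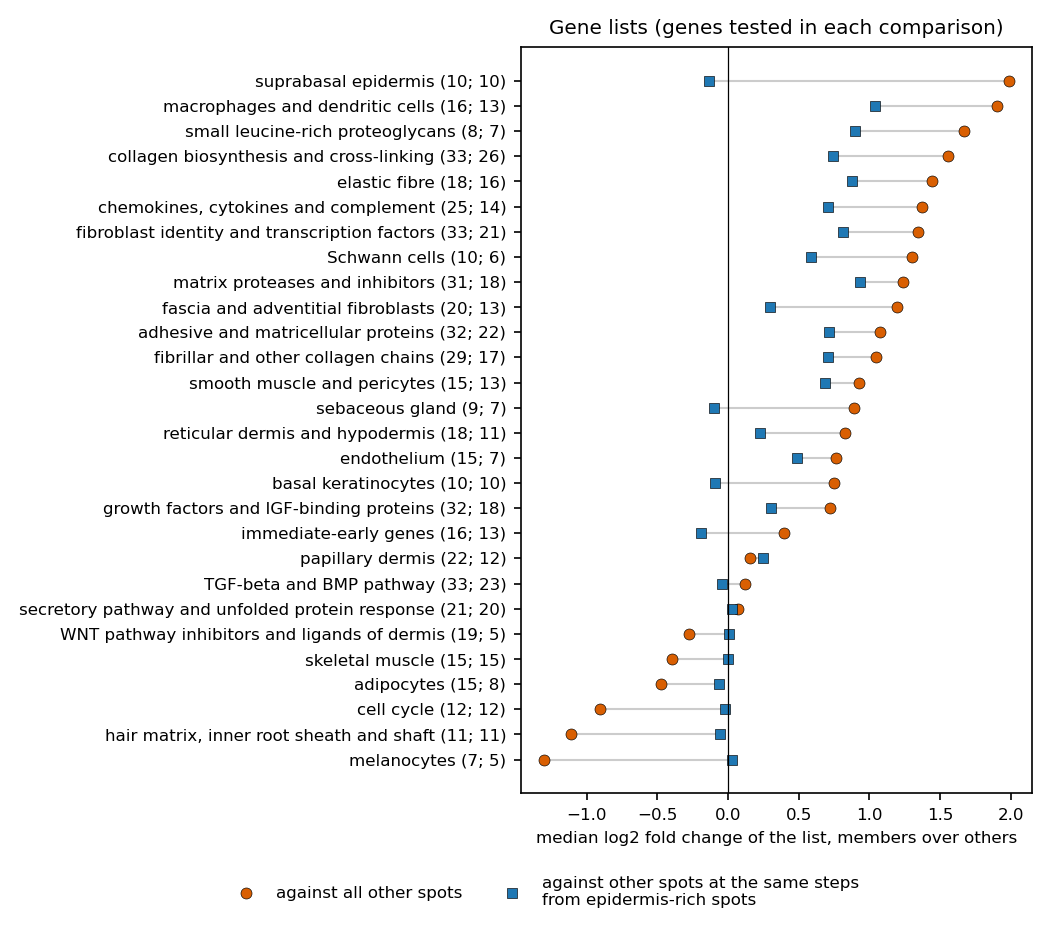
Median log2 fold change of each gene list, members over other spots, for lists with at least 5 genes tested in both comparisons, with the numbers tested in parentheses. Orange circles are the comparison with all other spots and blue squares that at equal steps from epidermis-rich spots. Suprabasal epidermis, 6 of whose 10 genes set the distances, moves from 1.99 to -0.14, basal keratinocytes from 0.75 to -0.09, and collagen biosynthesis moves from 1.56 to 0.74.

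Few genes were higher in every position. Of 6885 genes tested in all 4 position classes, 15 were higher in each, a set taken after the values were seen. Members were picked by 6 fibroblast and matrix genes in every position, so matrix genes among the 15 are no independent result. The 15 were the collagen chains *Col1a2*, *Col5a1* and *Col5a2*, the elastic fibre genes *Eln* and *Mfap2*, the procollagen processing enhancers *Pcolce* and *Pcolce2*, the collagen chaperone *Serpinh1* (HSP47), the cross-linking enzyme *Lox*, and *Aebp1*, *Cpz*, *Serpinf1*, *Pdgfrl*, *Scara5* and *H2-Eb1*. *Aebp1* is a collagen-binding carboxypeptidase-like protein, *Serpinf1* encodes PEDF and *H2-Eb1* is an MHC class II chain of antigen-presenting cells. *Col1a2* was higher by log2 fold changes of 1.30 among epidermis-rich spots, 1.80 at 1 step, 1.80 at 2 steps and 1.58 among muscle-rich spots. *Eln*, elastin, had 1.09, 1.06, 1.14 and 1.91.

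Position and membership can be set side by side for *Col1a2* and *Serpinh1*, without a test between positions. In muscle-rich members *Col1a2* had 6989, 6691, 6680.2 and 6219.8 CPM in slices 1 to 4, and in the other muscle-rich spots 2280.1, 2129, 2239 and 2165 CPM. Epidermis-rich spots that were not members had 8041, 7902, 6492 and 6991 CPM, a range that overlapped with that of the muscle-rich members, and epidermis-rich members had 16376, 17576, 18018 and 18935 CPM, above all of these. *Serpinh1* had 697, 524, 561 and 496 CPM in muscle-rich members and 554, 623, 646 and 676 CPM in epidermis-rich members, ranges that overlapped. In muscle-rich spots that were not members it had 211, 232, 213 and 218 CPM.

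**Figure D4:**
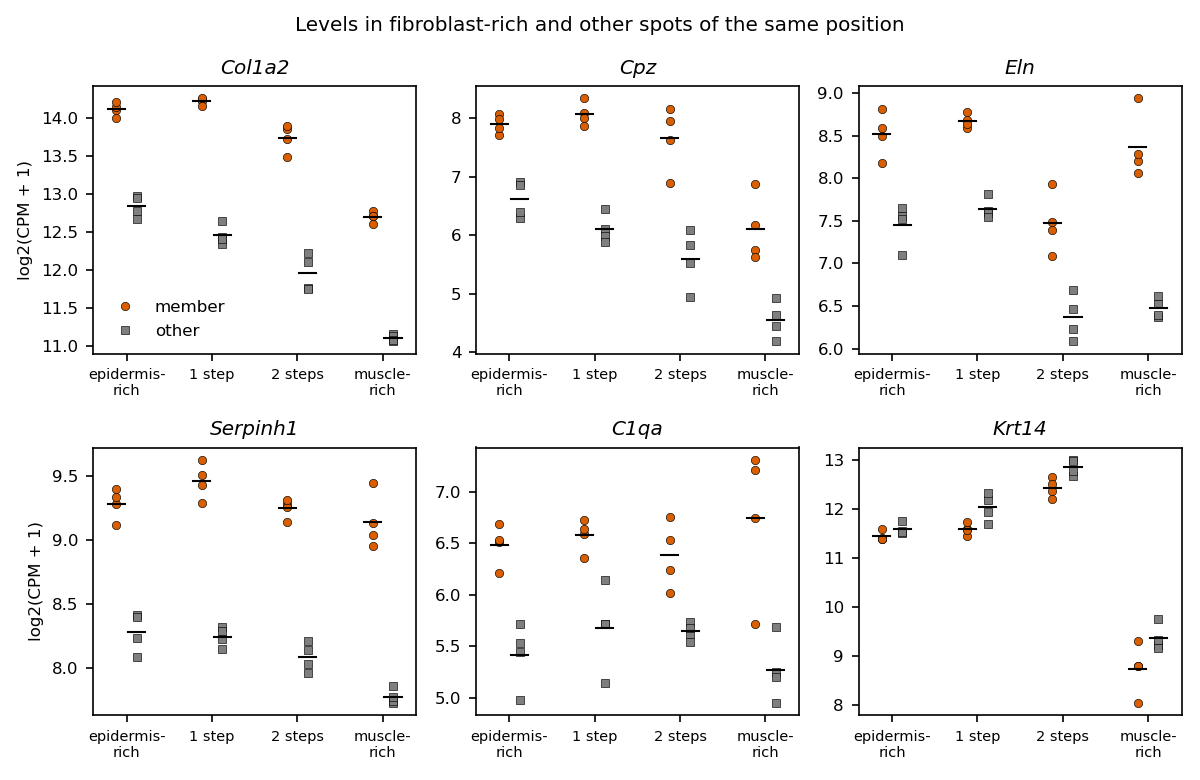
Levels as log2(CPM + 1) in members (orange circles) and other spots (gray squares) of the same position, with 1 point per slice and a line at the mean. *Col1a2*, *Cpz*, *Eln* and *Serpinh1* are separated in every position, whereas *Krt14*, a basal keratinocyte gene, is not higher in members in any of the 4.

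*Col1a2* (ENSMUSG00000029661) lies on chromosome 6 from 4504814 to 4541544 on the plus strand, *Cpz* (ENSMUSG00000036596) on chromosome 5 from 35502218 to 35525698 on the minus strand and *Eln* (ENSMUSG00000029675) on chromosome 5 from 134702593 to 134747323 on the minus strand (GRCm38, GENCODE M21). RefSeq promoters of GRCm38.p6, 250 bases before to 50 after a start, were given for 10 of the 15 genes and were searched for CCAAT on both strands (ATTGG on the other) and for TATAAA on the gene's strand. Counting a gene with any of its listed promoters, CCAAT was found for 4 of the 10, *Col1a2*, *Serpinf1*, *H2-Eb1* and, in 1 of its 2 promoters, *Mfap2*, against 42.3% of 6347 genes tested at equal distance, and TATAAA in 0 against 6.71%. The promoter of *Col1a2*, the gene with the smallest adjusted p of the 15 in every position (chr6:4505368-4505667, plus strand), holds both orientations of the motif, in capitals. The window lies inside the GENCODE span of the gene, which starts farther upstream.
Col1a2: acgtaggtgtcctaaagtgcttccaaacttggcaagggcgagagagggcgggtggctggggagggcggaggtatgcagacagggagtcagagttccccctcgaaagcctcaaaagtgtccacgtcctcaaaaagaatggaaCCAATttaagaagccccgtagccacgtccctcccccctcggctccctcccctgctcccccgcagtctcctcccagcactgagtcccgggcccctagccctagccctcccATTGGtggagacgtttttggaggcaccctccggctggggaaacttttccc

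Collagen chains were often higher in members. Of 29 tested, 15 were higher and 0 lower against all other spots (median log2 fold change 1.05), against 11.2% of all genes, and 8 of 17 were higher at equal distance (median 0.71), against 1.18%. Besides *Col1a2*, these were led by *Col5a1* (2.43), *Col6a2* (2.18) and *Col15a1* (2.16). Type V collagen sets the width of fibrils, and type VI forms beaded filaments around cells. *Col5a1* had 289, 282, 281 and 255 CPM in members and 54.4, 52.9, 50.5 and 47.4 CPM in other spots. The 3 main chains of type VI were also higher at equal distance, with *Col6a1* (1.07), *Col6a2* (1.16) and *Col6a3* (1.00). *Col7a1* and *Col17a1*, which anchor the epidermis, were higher against all other spots (1.68 and 1.13) and at -0.22 and -0.08 at equal distance, and the basement membrane chains *Col4a1* and *Col4a2* were at 0.42 and 0.37, under the 2-fold limit.

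The enzymes and chaperones that make collagen were also counted, against shares of all genes of 11.2% higher and, at equal distance, 1.18%. Against all other spots 22 of 33 were higher and 0 lower (median 1.56), and at equal distance 10 of 26 were higher (median 0.74). Procollagen is trimmed by *Adamts2*, which had 212, 207, 209 and 181 CPM in members against 35.5, 32.2, 32.6 and 34.7 CPM (log2 fold change 2.58 ± 0.07, adjusted p = 1.91e-15). The procollagen processing enhancers *Pcolce2* and *Pcolce* were at 2.54 and 2.22, and the prolyl hydroxylase subunit *P4ha2* at 2.22. The prolyl isomerase *Fkbp10* was at 2.14 and the lysyl oxidases *Loxl4*, *Lox* and *Loxl1* at 2.45, 1.83 and 1.56. *Creb3l1*, a transcription factor of collagen secretion, was at 2.34. General chaperones stayed under the 2-fold limit, with *P4hb* at 0.38 and *Ppib* at 0.32, and of 21 genes of the secretory pathway and unfolded protein response 1 was higher (*Sec24d* (1.20), a COPII coat gene) and 0 lower (median 0.07). The hydroxylase *Plod2* was at -0.77.

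Proteoglycan, elastic fibre and adhesive genes were in part higher, beside 11.2% of all genes and, at equal distance, 1.18%. Of 8 small leucine-rich proteoglycans, which space collagen fibrils, 7 were higher (median 1.67), led by *Ecm2* (2.52), *Podn* (2.33), *Aspn* (1.75) and *Fmod* (1.68), and at equal distance 3 of 7 were, *Ecm2* (1.19), *Podn* (1.19) and *Aspn* (1.11). *Fmod* was at -0.22 there. Elastic fibre genes had 12 of 18 higher (median 1.44) and 6 of 16 at equal distance (median 0.88). *Eln* had 376, 338, 312 and 294 CPM in members and 57.7, 48.0, 50.8 and 51.5 CPM in other spots (log2 fold change 2.66 ± 0.07, adjusted p = 5.28e-16), with no overlap. The fibrillin gene *Fbn1* was at 1.96 and the latent TGF-β binding protein gene *Ltbp1* at 2.21. Adhesive and matricellular genes had 18 of 32 higher and 1 lower (median 1.08), with *Ccn5* (2.82), *Tgfbi* (2.49), *Comp* (2.43) and *Tnxb* (2.11), and 1 of 22 higher at equal distance (*Spon2* (1.04)), where the median was 0.71. *Has3*, a hyaluronan synthase, was the lower one (-1.03).

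Genes that remodel the matrix were in part higher, beside 11.2% of all genes and 1.18% at equal distance. Of 31 proteases and inhibitors 19 were higher (median 1.24), and 8 of 18 at equal distance (median 0.93). *Mmp27* and *Mmp3*, both matrix metalloproteinases, were at 2.66 and 2.65, and at 1.43 and 1.34 at equal distance. *Ctsk*, cathepsin K, which cuts collagen in lysosomes, had 138, 161, 131 and 108 CPM in members and 29.1, 26.1, 24.7 and 23.6 CPM in other spots (log2 fold change 2.37 ± 0.08, adjusted p = 2.63e-14). The gelatinase *Mmp2* was at 1.89, the collagen uptake receptor *Mrc2* at 1.82 and the inhibitor *Timp1* at 1.81. The inhibitor *Timp3* was at -0.23 and the activator *Plat* at 0.24.

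Fibroblast identity genes that the score did not use were in part higher, beside 11.2% of all genes and, at equal distance, 1.18%. Of 33 tested 23 were higher and 0 lower (median 1.35), and 2 of 21 at equal distance (median 0.81). They were led by *Osr2* (2.86), *S100a4* (2.41), *Nfatc4* (2.34) and *Osr1* (2.06), and the surface marker *Cd34* was at 1.91. *Pdgfra*, the PDGF receptor that marks dermal fibroblasts, had 25.9, 25.3, 27.4 and 29.4 CPM in members and 12.4, 11.8, 14.2 and 15.5 CPM in other spots, a log2 fold change of 1.00 ± 0.12 that was close to the 2-fold limit. The dermal transcription factors *Twist1*, *Twist2* and *Prrx1* were at 1.94, 1.93 and 1.53.

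Lists for the layers of the dermis each held some higher genes, against 11.2% higher and 3.66% lower over all genes. Papillary genes had 8 of 22 higher and 2 lower (median 0.16). Higher were *Cyp26b1* (2.00), *Twist2* (1.93), *Sfrp2* (1.72) and *Rspo1* (1.67), of which *Sfrp2* was found in 73 members and had 18 UMIs in all shallow and 167 in all deep members as defined below, and lower were *Lef1* (-1.43) and *Wif1* (-1.31), which the hair follicle also expresses. Reticular and hypodermal genes had 8 of 18 higher (median 0.83), with *Cilp2* (2.12), *Ptgs1* (2.11), *Aspn* (1.75) and *Ly6a* (1.69). Fascia and adventitial genes had 12 of 20 higher and 1 lower (median 1.19), with *Cadm3* (2.59), *Opcml* (1.99), *Gap43* (1.95) and *Pi16* (1.71). At equal distance from the epidermis 0 of 12, 1 of 11 and 1 of 13 of these lists were higher, against 1.18% of all genes, counts too small to be told apart from that share.

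Signaling genes of the dermis moved in both directions. Of all genes 11.2% were higher and 3.66% lower, and 1.18% were higher at equal distance. Among 33 genes of the TGF-β and BMP pathway, 10 were higher and 2 lower (median 0.12), and 0 of 23 at equal distance. The higher ones included the BMP antagonists *Grem1* (2.16) and *Chrd* (1.91) and the ligand *Tgfb3* (1.63), and the lower ones were *Bambi* (-1.32) and *Smad6* (-1.0), which dampen the pathway. Of 19 WNT genes 5 were higher, among them the secreted WNT modulator *Sfrp2* (1.72), which came mainly from the deep members, and the agonist *Rspo1* (1.67), and 2 were lower, *Wnt11* (-1.48) and *Wif1*. Growth factor and IGF-binding genes had 12 of 32 higher (median 0.72) and 1 of 18 at equal distance, with *Angptl1* (2.89), *Igfbp2* (2.43) and *Igfbp5* (1.99). The last of these, *Igfbp5*, was the one called at equal distance (1.10).

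Of the immune cell lists, that of macrophages and dendritic cells was higher throughout against all other spots and in part at equal distance, where 1.18% of all genes were higher. All 16 macrophage and dendritic cell genes were higher (median 1.90), and 7 of 13 at equal distance (median 1.04). Their summed level was 2545, 2409, 1689.5 and 1989.6 CPM in members and 452, 402, 366 and 429 CPM in other spots, and *Cd74* gave 30.1% of the list in members. *Cd74*, the MHC class II invariant chain, was at 2.78 ± 0.08 (adjusted p = 2.46e-15), and at 1.04 at equal distance. *Mrc1*, *Csf1r* and *Lyz2*, markers of macrophages, were at 2.01, 1.97 and 1.84, and at 1.22, 1.18 and 1.27 at equal distance. Chemokine, cytokine and complement genes had 17 of 25 higher (median 1.37), led by *Ccl19* (3.01), *Ccl21a* (2.78), *Ccl7* (2.55) and *Cxcl16* (2.02), and 4 of 14 at equal distance, *Ccl19* (1.25), *Ccl8* (1.19), *Serping1* (1.03) and *Cfb* (1.03).

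The counts of other cell types below stand against 11.2% of all genes higher and 3.66% lower, and 1.18% higher at equal distance. Of 7 T cell genes 6 were higher, with *Cd3e* (2.49), *Trdc* (2.47), *Cd3g* (2.36) and *Nkg7* (2.20), whereas *Trbc2* was at 0.38. *Thy1*, which fibroblasts also express, gave 71.1% of this list's UMIs, and its genes *Thy1* and *Trbc2* were at 0.81 and -0.22 at equal distance, neither of them called. Mast cell genes had 3 of 6 higher (*Mcpt4* (2.08), *Cpa3* (1.72) and *Cma1* (1.52)) and *Kit*, which melanocytes share, lower (-1.46), and 1 of 2 was higher at equal distance (*Mcpt4* (1.08)). Endothelial genes had 4 of 15 higher (median 0.76), of which *Lyve1* (2.76) and *Prox1* (1.28) mark lymphatic vessels, and *Lyve1* is also found on macrophages. Smooth muscle and pericyte genes had 6 of 15 higher, with *Cnn1* (2.79), *Myh11* (2.70), *Actg2* (2.39) and *Mylk* (2.07), and 1 of 13 at equal distance (*Myh11* (1.04)). Schwann cell genes had 6 of 10 higher (median 1.30), with *Pmp22* (1.83) and *Mbp* (1.79), and 0 of 6 at equal distance. Adipocyte and skeletal muscle genes had 0 of 15 each called, with medians of -0.47 and -0.40. The summed skeletal muscle list had log2 ratios of -0.90, -0.81, -0.62 and 0.69 in slices 1 to 4, so slice 4 went the other way. Each of these cell types can share a spot with fibroblasts, and their part in the members' profile was not tested.

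The only gene lower at equal distance was *Xist*, which is expressed in females. It had 25.8, 29.3, 29.4 and 35.4 CPM in members and 53.3, 64.2, 73.1 and 77.6 CPM in other spots (log2 fold change -1.14 ± 0.14, adjusted p = 6.00e-08). Each slice was split into 3 strips across the tissue, which need not match the mice. *Xist* gave 76.5% to 88.4% of the summed *Xist* and Y-linked UMIs in strip 3 and 7.47% to 27.4% in strips 1 and 2, and members were 12.3% to 17.9% of the spots in strip 1, 7.65% to 9.46% in strip 2 and 4.12% to 9.82% in strip 3. With UMIs summed per strip over the 4 slices and the strip as a block, *Xist* was at -0.00 ± 0.28 against all other spots, where it was at -0.61 ± 0.11 with slices as blocks. With strips as blocks 1678 genes were higher and 525 lower against all other spots.

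Against adipose-rich spots, the top 10% by *Adipoq*, *Plin1*, *Plin4*, *Cidec*, *Cfd* and *Retn*, 910 of 10967 genes were higher in members (8.30%) and 283 lower (2.58%), with 608 spots in each class. The genes named by the rule as higher were *Igha* (5.23), *Lce1c* (4.86), *Lce1l* (4.82), *Igkc* (4.64) and *Lce1m* (4.48), of which the *Lce1* genes belong to the cornified epidermis. The lower ones were *Pck1* (-3.47), *Thrsp* (-3.11), *Hp* (-3.03), *Nnat* (-2.96) and *Cdo1* (-2.71), and *Pck1* and *Thrsp* serve fat cell metabolism. *Hp*, haptoglobin, had 43.5, 58.8, 77.0 and 60.3 CPM in members and 435, 500.1, 568 and 521 CPM in adipose-rich spots. Collagen chains had 11 of 22 higher, collagen biosynthesis 20 of 28 and elastic fibre genes 11 of 17. Of 7 adipocyte genes that did not define the class, 5 were lower (median -1.48).

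Smooth muscle-rich spots, the top 10% by *Acta2*, *Tagln*, *Myh11*, *Cnn1*, *Actg2* and *Synpo2*, gave fewer differences. With 446 spots in each class, 176 of 9789 genes were higher in members (1.80%) and 74 lower (0.756%). The higher ones named by the rule were *Mup20* (3.92), *Igkc* (3.90), *Igha* (3.76), *Cpz* (2.17) and *Mmp27* (2.09). *Cpz* had 231, 259, 176 and 156 CPM in members and 57.9, 46.9, 39.0 and 40.1 CPM in smooth muscle-rich spots. The lower ones were *Sln* (-1.80), *Dhrs7c* (-1.56), *Csrp3* (-1.45), *Sgca* (-1.45) and *Tcap* (-1.39), all genes of striated muscle, and 10 of 15 skeletal muscle genes were lower. Each of these 5 lost its call under some setting. *Sgca* did so without slice 1, 2 or 3 and with DESeq2, *Dhrs7c* without slice 2 or 3 and *Csrp3* with DESeq2. *Sln* lost it with strips in place of slices and *Tcap* with *Col1a1* left out of the score. Some folds stayed about as large, with *Dhrs7c* at -1.75 without slice 2 and *Sgca* and *Csrp3* at -1.53 and -1.59 with DESeq2. *Sgca* was at -1.03 without slice 3. Without *Col1a1* in the score, *Dhrs7c*, *Csrp3*, *Sgca* and *Tcap* were at -0.96, -0.57, -0.71 and -0.66. The summed muscle list was lower in members by log2 ratios of -1.95, -0.77, -1.44 and -0.07, so slice 4 had almost no difference. The number of lower genes moved between 8 and 170 with the way members were chosen and was 21 without slice 1, 41 without slice 2, 23 without slice 3, 152 without slice 4 and 41 without the slice as a block. *Igkc* and *Igha* also depended on it, at 1.12 and 1.47 with *Col1a1* left out of the score (adjusted p = 0.417 and 0.300), where edgeR called neither. Collagen chains had 7 of 20 higher, collagen biosynthesis 12 of 28, elastic fibre genes 9 of 17 and macrophage and dendritic cell genes 7 of 16.

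Members differed among themselves by depth in the skin. The 563 nearer to an epidermis-rich spot (152, 157, 141 and 113 in slices 1 to 4) were 0.871 ± 0.0625 steps from one, and the 73 nearer to a muscle-rich spot (13, 16, 13 and 31) were 0.388 ± 0.171 steps from one. The 6 with equal distances were left out. Strips 1 to 3 held 43, 23 and 7 of the deep and 252, 156 and 155 of the shallow members, and of slice 4's 31 deep members 29 lay in 1 strip, so that the bands also differ in their make-up by strip. Their mean scores were 3.00 ± 0.0877 and 2.90 ± 0.0954. Of the deep members 62.0% ± 17.1 were muscle-rich and 0% epidermis-rich, and of the shallow members 0% were muscle-rich and 35.5% ± 3.88 epidermis-rich. The values of 0% follow from the split itself. The mitochondrial share of UMIs was 8.0% ± 1.46 in deep and 4.85% ± 0.736 in shallow members. Of 8375 genes tested, 784 were higher in shallow members (9.36%) and 549 lower (6.56%). Outer tertiles of the position difference gave 209 higher and 175 lower, and members from the top 5% gave 387 and 261. In the 15 skeletal muscle genes, 6 of which define the muscle-rich spots and so the deep class, the deep members had a summed level of 33747, 37196, 54591 and 48520.2 CPM, against 1490.0, 1454, 1751 and 2204 CPM, and 9 of 9 that did not define a class were lower in shallow members. Since the deep class was split off by nearness to muscle-rich spots, these 9 are no independent result.

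Several genes named by the rule had 0 UMIs in the deep members of every slice, so a bound is given against 3 UMIs over all deep members. *Lce1l*, of the cornified epidermis, was at least 12.9-fold higher in shallow members (263 UMIs), the smooth muscle gene *Cnn1* at least 10.7-fold, the chitinase *Chit1* at least 9.65-fold, *Cdh4* at least 9.30-fold and the chemokine scavenger receptor *Ackr4* at least 8.12-fold. Between the outer tertiles of position *Ackr4* was not called (log2 fold change 0.71, adjusted p = 0.121). Higher in deep members were the striated muscle genes *Synpo2l*, *Smyd1*, *Sln* and *Ky*, with log2 fold changes (shallow over deep) of -6.09, -5.78, -5.50 and -5.42, and *Sfrp2*. This secreted WNT modulator had 6.13, 0.620, 1.42 and 2.47 CPM in shallow members and 209, 214, 195 and 150.0 CPM in deep ones (log2 fold change -6.09 ± 0.29, adjusted p = 1.86e-19), 2 ranges far apart.

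Other cell types moved with the bands in 4 of 4 slices. Basal keratinocyte genes summed to 8068 ± 735 CPM in shallow and 1696 ± 379 CPM in deep members (*Krt14* the most abundant), and macrophage and dendritic cell genes to 2348 ± 390.4 CPM and 1086 ± 281 CPM (*Cd74* the most abundant). Adipocyte genes summed to 1377 ± 178 CPM in shallow and 4199.8 ± 803 CPM in deep members (*Fabp4* the most abundant), Schwann cell genes to 533 ± 102 CPM and 2538 ± 1616 CPM (*Pmp22* the most abundant). No gene of these 4 lists was at 0 in the members, and their part in the results below was not tested.

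Fibroblast genes also differed between the bands. Shallow members were higher in *Igfbp2* (4.04), *Coch* (3.92), *Cyp26b1* (2.84) and *Rspo1* (2.83), and *Cyp26b1*, which breaks down retinoic acid, had 127, 89.2, 109 and 115 CPM against 47.7, 4.64, 21.6 and 2.54 CPM in deep members. *Mfap4* was higher in shallow members by 2.56 ± 0.14, *Col1a2* by 1.26 ± 0.09 and the chemokines *Ccl19* and *Ccl21a* by 4.98 and 4.50. Deep members were higher in *Sfrp4* (-5.24), *Thbs4* (-4.33), a thrombospondin also made in muscle and tendon, *Gpx3* (-3.07), *Col6a6* (-2.49) and *Col14a1* (-1.65). *Coch*, *Sfrp4*, *Thbs4* and *Gpx3* all belong to the reticular and hypodermal list, which thus held genes higher in either band. Of 15 fascia and adventitial genes 0 were higher in shallow and 7 in deep members (median -0.94), against 9.36% and 6.56% of all genes. Among those higher in deep members were *Plac8* (-2.83), *Dpp4* (-2.19), *Ackr3* (-1.78) and *Pi16* (-1.20). Papillary genes had 3 of 16 higher in shallow and 3 in deep members. Collagen biosynthesis had 5 of 27 higher in shallow and 1 in deep members (median 0.23), the latter a share below that of all genes, and for *Pcolce* and *Col5a1* the difference was 0.01 ± 0.12 and 0.02 ± 0.13.

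**Figure D5:**
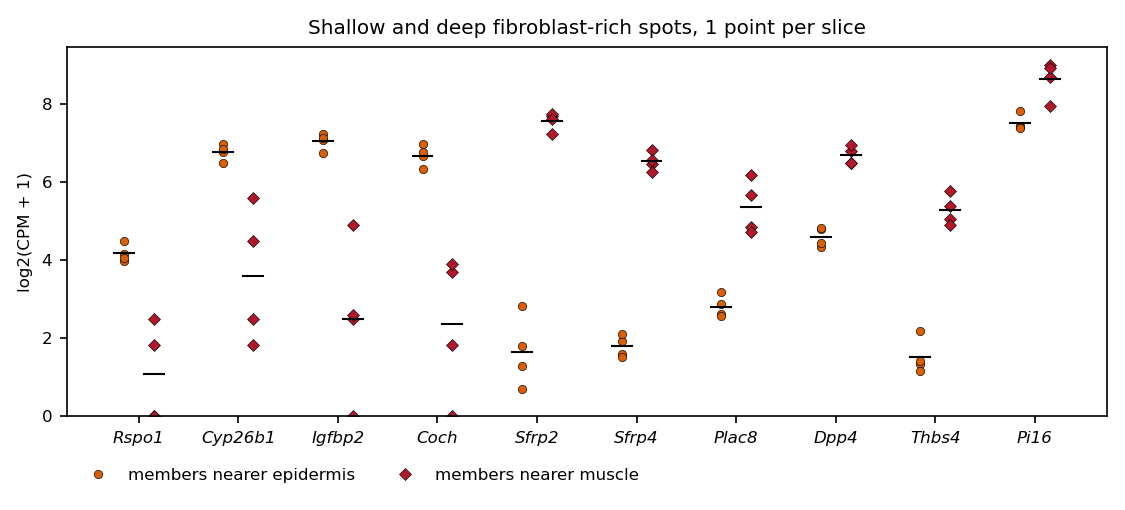
Levels as log2(CPM + 1) of 10 genes in shallow members (orange circles) and deep members (red diamonds), with 1 point per slice and a line at the mean. *Rspo1*, *Cyp26b1*, *Igfbp2* and *Coch* are higher in shallow members, and *Sfrp2*, *Sfrp4*, *Plac8*, *Dpp4*, *Thbs4* and *Pi16* in deep ones, with no overlap between the 2 groups of points for any gene.

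Members were also compared with other spots among muscle-rich spots, which were picked by 6 muscle genes in both classes. Of the 9 further skeletal muscle genes tested 0 were higher and 0 lower there (median -0.16). *Sfrp2* had 224, 178, 203 and 210.2 CPM in the members of slices 1 to 4 and 37.0, 43.3, 42.3 and 28.7 CPM in the other spots (log2 fold change 2.47 ± 0.21, adjusted p = 3.93e-14), and *Sfrp4* was at 2.03 ± 0.29. Fascia and adventitial genes had 8 of 15 higher (median 1.03), with *Cadm3* (2.29), *Plac8* (1.72), *Ackr3* (1.72) and *Fn1* (1.66) and *Pi16* (1.51), and adhesive and matricellular genes 10 of 22, against 1.43% of all genes higher among muscle-rich spots. *Sfrp2* was not among the genes that passed the count filter at 0, 1 or 2 steps from the epidermis. Schwann cell genes had the highest median of the lists with at least 5 genes in this class, with 4 of 5 higher (median 2.35). *Mbp*, a myelin gene, had 349, 83.9, 493 and 95.2 CPM against 36.6, 55.1, 36.8 and 47.2 CPM (log2 fold change 2.41 ± 0.26, adjusted p = 2.88e-10), with slices 1 and 3 far above the others and no overlap between the ranges. These 46 members are few (10, 6, 9 and 21), and UMIs of nerve and of fibroblasts in a spot cannot be told apart here.

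The genes of the study's lineage question did not pass the 2-fold limit in members. *Krox20* (*Egr2*, ENSMUSG00000037868, chromosome 10 from 67535475 to 67542188) had 43.3, 59.7, 54.7 and 56.9 CPM in members and 29.8, 31.9, 28.3 and 37.4 CPM in other spots, a log2 fold change of 0.74 ± 0.10 (adjusted p = 3.43e-06), under the 2-fold limit, and -0.19 ± 0.09 at equal distance (adjusted p = 0.220). *Lrig1*, a marker of upper follicle stem cells, was at 0.45 ± 0.08 against all other spots and at -0.39 ± 0.07 at equal distance, and *Nestin* (*Nes*) at -0.33 ± 0.13 and -0.17 ± 0.18. Shallow members had higher *Krox20* and *Lrig1* than deep ones, by 1.94 ± 0.33 and 1.66 ± 0.27. The reporter *tdTomato* had 1, 6, 3 and 4 UMIs in members and 20, 25, 20 and 24 in other spots, too few for a comparison. *CreERT* was not analysed here.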

How the data were processed

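The authors deposited UMI counts per gene and spot from Space Ranger 2.0.1 on mm10, with spot positions, for 4 slices. Sections were stained, imaged and permeabilized on the slides before Visium libraries were sequenced. Of 6420 spots, 9 with under 250 genes were left out. The 750 barcodes common to all slices are array positions.

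Counts were summed per slice and class and tested with edgeR 4.0.16 (quasi-likelihood, TMM, filterByExpr, R 4.3.3), with the slice as a block because both classes lie in the same sections, and Benjamini-Hochberg adjustment. Deviations from class means correlated within slices (0.303, 0.149, 0.0970 and 0.0818 against all other spots). The 6 score genes were never tested, nor were the genes that define a class in the comparisons with adipose-rich and smooth muscle-rich spots and between shallow and deep members. Genes that set the position were kept in the fits at equal position. Fold changes are given as log2, with their SE, and CPM are counts per 1000000 UMIs of the class. Sign-flip tests used scipy 1.17.1. No doublet caller was run, since spots are not cells.

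The members and the 33 gene lists (597 symbols, 3 not in the files) were chosen with earlier results of these data known. Named genes had the largest folds among those called in the same direction in every slice, with at least 20 CPM and no Gm or Rik name (10 higher and 6 lower against all other spots, 5 and 5 otherwise), with up to 4 from each list. Genes named for the position classes, the reporter, *Xist* and a few further examples were chosen after their values were seen. Alternatives included DESeq2 1.42.0, other scores and thresholds, thinning to 5500 UMIs per spot (563 shallower spots left out) and split UMIs. On simulated data with 200 of 13785 genes changed by 1.5 (log2), the comparison with all other spots recovered 89%. The simulated spread was set by hand and no spots were ranked by a score, so this does not cover the choice of members. A few genes, including some that the rule would name, are not reported here.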

Additional observations from a re-analysis of the deposited data

Results flagged for a closer look

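In 5 of 81 sets of 4 slice values, 1 slice stood apart from the other 3. Chance does this in about 1 in 20 sets. The ribosomal protein share of UMIs was lower in members by 3.72 percentage points in slice 4 (a difference of -3.72), against -5.36 to -5.18 in the other slices. Leaving out muscle-rich spots themselves, members lay farther from muscle-rich spots than other spots did by 2.97 steps in slice 2, against 2.40 to 2.50. The summed hair list had a log2 ratio, members over other spots, of -0.95 in slice 1, against -1.22 to -1.18. In slice 4 the sebaceous gland list was at 0.35, against 0.86 to 0.96, and the cell cycle list at -0.56, against -1.04 to -0.96. Slice 4 also had the most deep members, 31 of 146.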

How the results depend on the processing

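Under other tools, filters, scores and thresholds the numbers of genes higher and lower against all other spots stayed within 1.5 times the reported values, except within depth quartiles (555 and 173), where fewer genes could be tested. They fell to 94 and 1 at the same steps from the epidermis, 106 and 2 among epidermis-rich spots, 173 and 10 at 1 step, 87 and 7 at 2 steps and 119 and 2 among muscle-rich spots, settings added after the data were seen that hold fewer spots. Of the 1550 higher genes 618 were tested at equal distance. There 92 were called, 351 had an adjusted p under 0.05 in the same direction and 161 had the opposite sign. The median log2 fold change of the higher genes was 1.499 against all other spots and 0.493 at equal distance. Of the 505 lower genes 157 were tested there, with 0 called, 20 under 0.05 and 35 of opposite sign. Their medians were -1.12 and -0.135. Against all other spots DESeq2 gave 1471 and 418. Leaving out 1 slice at a time gave 1444 to 1654 higher and 458 to 599 lower. At 1 step from the epidermis *Mfsd2a* and *Foxe1* changed sign (log2 fold change 0.0452 and 0.117).

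Against adipose-rich spots, thinned spots gave 555 higher and 182 lower, and with no low-count filter 489 were lower. Leaving out slices gave 867 to 1021 and 304 to 359. Against smooth muscle-rich spots, 105 were higher with DESeq2 and 105 with z-scores, and 145 to 195 without 1 slice. The number lower there was 26 with DESeq2, 112 with no filter, 22 with thinned spots, 31 with the top 20%, 170 with summed UMIs as the score, 8 with z-scores, and 10, 147, 126, 148 and 12 with *Col1a1*, *Col3a1*, *Dcn*, *Mfap5* and *Sparc* left out of the score, and without 1 slice 21 to 152. *Igkc* was at -0.00758 with the top 5% (adjusted p = 0.997), and over its alternatives the adjusted p ranged up to that value. The cause of these shifts was not tested.

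Between shallow and deep members, outer tertiles of the position difference gave 209 higher and 175 lower, the top 5% gave 387 and 261, thinned spots 512 higher and the summed-UMI score 328 lower. Leaving out slices gave 649 to 775 and 514 to 596. The share of neighbors that were members was 28.6% with the top 5%, 56.5% with the top 20% and 43.5% with summed UMIs, and 38.3% to 41.0% without 1 slice.

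The slice pairs the classes. Fitted without this block, 1537 genes were higher and 469 lower against all other spots, 907 and 283 against adipose-rich, 165 and 41 against smooth muscle-rich spots, and 777 and 549 between shallow and deep members. Among genes named by the rule, 478 of 491 fits against all other spots kept their direction and call, as did 210 of 210 against adipose-rich spots, 172 of 200 against smooth muscle-rich spots and 200 of 201 between shallow and deep members. Only 73 deep members and 46 muscle-rich members limit those comparisons, and genes with few UMIs did not pass the count filter there.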

Other observations

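Genes of the early response to tissue handling or stimulation were in part higher in members. Of 16 immediate-early genes 4 were higher against all other spots, *Fosb* (1.86), *Dusp1* (1.62), *Fos* (1.31) and *Klf2* (1.19) as log2 fold changes, and *Jun* and *Egr1* were at 0.24 and 0.22 (median 0.39 over the list, against -0.03 over all genes, of which 11.2% were higher). At equal distance from the epidermis 0 of 13 were higher and the median was -0.19. Shallow members had 6 of 13 higher than deep ones (median 0.93), against 9.36% of all genes. Of 9 dermal papilla and sheath genes 1 was higher (*Prom1* (1.96)) and 2 lower (*Corin* (-1.65) and *Wif1* (-1.31)), with a median of -0.80, shares to be read against 11.2% and 3.66% of all genes. Erythrocyte genes had 0 of 5 called (median -0.32). Between the bands 4 of 4 were higher in deep members (median -2.14, shallow over deep), against 6.56% of all genes.

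Genes that led single positions, some of them members of the lists, were chosen after their values were seen. Among epidermis-rich spots increases named by the same rule included *Emilin1* (1.78), *C1qc* (1.59), *Mgl2* (1.59), *Pdgfrl* (1.57) and *Olfml2b* (1.54), of which *C1qc* encodes a complement C1q chain made by macrophages and *Mgl2* a lectin of dermal dendritic cells and macrophages. At 2 steps they included *Igkc* (3.94), *Mup20* (3.21), *Cthrc1* (2.55), *Cpz* (2.11) and *Tent5c* (2.03), and among muscle-rich spots they included *Akr1c18* (2.52), *Sfrp2* (2.47), *Akr1c14* (2.44) and *Mbp* (2.41). At 2 steps *Igkc* had 22.9, 7.31, 54.6 and 483 CPM in the members of slices 1 to 4. Other spots at 2 steps had 9.39, 1.04, 13.4 and 1.72 CPM. The log2 ratios were 1.29, 2.81, 2.03 and 8.14, by far the largest in slice 4. *Cthrc1*, a collagen triple helix repeat protein, had 32.0, 26.8, 17.2 and 39.4 CPM in the members 2 steps from the epidermis and 8.05, 3.64, 3.35 and 3.43 CPM in other spots there. *Akr1c18*, an aldo-keto reductase that inactivates progesterone, had 49.8, 42.0, 38.7 and 35.7 CPM in muscle-rich members and 9.04, 8.98, 6.77 and 4.47 CPM in the other muscle-rich spots, and at 1 and 2 steps from the epidermis it was at -0.68 and -0.41. Of the 119 genes higher in members among muscle-rich spots, 58 were not called in any of the 3 epidermal classes, and 50 of these were tested in at least 1 of them, where 1.40%, 2.03% and 0.954% of all genes were higher. The difference between positions was not tested for single genes.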
